A study of Homo sapiens with 6 samples.

Results

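The 10 genes described here encode enzymes grouped for a part in making androgens from steroid precursors or in preparing androgens for removal from the cell. Some, such as SRD5A3 and HSD17B4, also have other roles, and the substrates of UGT2B11 are less clear. The 10 are CYP11A1, STS, SRD5A1, SRD5A3, HSD17B4, HSD17B11, UGT2B15, UGT2B17, UGT2B11 and UGT2B28. They were picked by name, and all 10 of the names were found among the 16000 genes of the deposited table. RNA was sequenced from LNCaP, a human cell line established from a lymph node metastasis of prostate cancer, which responds to androgen. The cells had been stained with ALDEFLUOR, a dye that becomes fluorescent through aldehyde dehydrogenase activity, and sorted by flow cytometry. The ALDH high group (3 samples) came from the 10% of cells with the most signal, and the ALDH low group (3 samples) from the 10% with the least. Both groups were kept in RPMI-1640 with 10% fetal bovine serum, and the labels name no hormone or drug. All 6 samples are of 1 cell line.

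Androgen synthesis starts when the side chain of cholesterol is cut off in mitochondria to give pregnenolone. Later steps oxidise and reduce the steroid, and steroid reductases turn testosterone into dihydrotestosterone, the most potent androgen of the prostate. Prostate cells can also start from sulfated adrenal precursors once the sulfate is removed. Androgens are inactivated when a UDP-glucuronosyltransferase (UGT) joins glucuronic acid to them, which makes them soluble and ready for export. In LNCaP cells UGT2B15 and UGT2B17 carry out much of this step, and androgen treatment is known to lower the RNA of both.

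The table gives normalized reads, which are the reads of a gene divided by 1 size factor per sample. Recovered totals ran from 23817310 to 28766265 reads in ALDH high and from 27042022 to 30617873 in ALDH low, spike-ins included. The 8 luminal prostate markers looked for, among them KLK3 and HOXB13, were all in the table, with a summed level of 191157 to 205747 normalized reads in ALDH high, against 186334 to 222442 in ALDH low. None of 4 markers of adrenal and gonadal steroid-making cells was in the table, and 1 of 4 liver markers was (APOA1, at 9.14 to 16.4 in ALDH high, against 12.7 to 24.6 in ALDH low). Of 3 endothelial markers 1 was present, VWF, at 189 to 417 in ALDH high, against 235 to 386 in ALDH low. Of 3 leukocyte markers 1 was present, CD68, at 16.4 to 32.0 in ALDH high, against 19.9 to 27.9 in ALDH low. Of 3 fibroblast markers 1 was present, PDGFRB, at 70.2 to 84.6 in ALDH high, against 59.8 to 68.3 in ALDH low. The part of these markers in any result was not tested. The libraries did not divide along the sort. ALDH high 1, ALDH high 3 and ALDH low 2 correlated with each other at r = 0.99 to 0.991 across genes, and the other pairs of libraries at 0.969 to 0.986. These 3 libraries held the 3 lowest values in 12% of the genes and the 3 highest in 13.6%. The difference of each of the 10 enzymes is therefore also given without both samples numbered 2.

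No enzyme of the set was called as different between ALDH high and ALDH low. With limma on log2(normalized reads + 1), 0 of 10 passed an adjusted p of 0.05, where 0% of all 16000 genes passed. The smallest adjusted p among the 10 was 0.984. At an unadjusted p under 0.05, limma, edgeR and DESeq2 each counted 0 of the 10, against 338, 357 and 355 of all genes, which is 2.11% for limma. The log2 difference, ALDH high minus ALDH low, lay below 0 in 9 of the 10 and above 0 in 1, HSD17B4. Below 0 also lay 47.7% of all genes. The median of the 10 was −0.20, beside 0.02 for all genes, and no other tool or scaling changed a sign. In bulk RNA, fewer cells with a transcript and less of it per cell cannot be told apart.

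**Figure D1:**
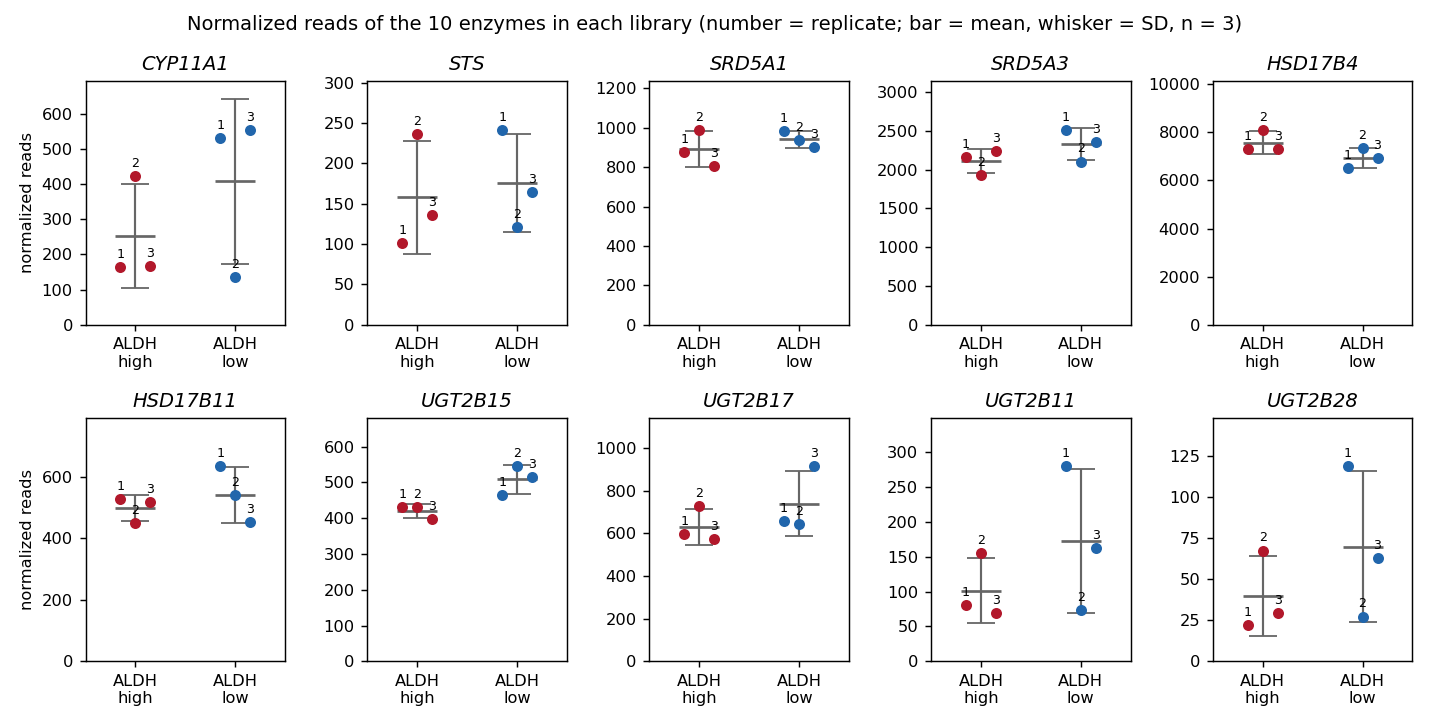
Normalized reads (vertical axes, from 0) of each enzyme in the 3 ALDH high and the 3 ALDH low libraries, with the replicate number beside each point, the mean as a bar and the SD as a whisker. UGT2B15 is the only panel in which the groups do not overlap (398 to 433 in ALDH high, against 466 to 545 in ALDH low), and CYP11A1, UGT2B11 and UGT2B28 spread most within each group.

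CYP11A1 is the side-chain cleavage enzyme, the first step from cholesterol (chromosome 15, 74337759 to 74367740 on GRCh38, minus strand). Its level was 164, 422 and 167 normalized reads in ALDH high 1, 2 and 3, against 531, 137 and 554 in ALDH low 1, 2 and 3. ALDH high 2 thus lay near ALDH low 1 and 3, while ALDH low 2 was the lowest of all, and the groups overlapped. The means were 251 ± 148 in ALDH high, against 407 ± 235 in ALDH low (SD, n = 3 each). The log2 difference was −0.60 (95% interval −1.76 to 0.56), and it was −0.25 without ALDH low 3 and −1.26 without ALDH low 2. Without both samples numbered 2 the difference was −1.70 (−2.16 to −1.25), and limma's adjusted p was 0.0213. In that comparison of 4 libraries 0.669% of all genes were called, and CYP11A1 was the only enzyme of the 10 among them. The samples left out are those that lay with the other group in this gene, and they were chosen with the arrangement of the libraries known. The call of CYP11A1 is therefore no independent support for a difference. What part that arrangement had in the call was not tested. Antisense and pseudogene exons lie across part of the gene: AC090826.1 covers 21.2% of its exon bases and PPIAP46 covers 7.73%, both on the opposite strand. Neither is listed in the table, and the labels do not say whether strand was kept.

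STS, steroid sulfatase, removes sulfate from precursors such as dehydroepiandrosterone sulfate (chromosome X, 7219456 to 7354810). It had 102, 236 and 136 normalized reads in ALDH high, against 242, 121 and 165 in ALDH low, in the order of the replicates. ALDH high 2 and ALDH low 1 were the highest, and the groups overlapped. The log2 difference was −0.19 (95% interval −0.95 to 0.58). It turned to 0.08 without ALDH high 1 and to 0.07 without ALDH low 1. Leaving out both samples numbered 2 gave −0.76 (−1.44 to −0.08), with a limma adjusted p of 0.286.

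The reductases were steady across the libraries. SRD5A1, a steroid reductase that makes dihydrotestosterone (chromosome 5, 6633343 to 6674386), gave 877, 989.9 and 808 normalized reads in ALDH high, against 986, 936 and 902 in ALDH low. Its highest library exceeded its lowest 1.22-fold, the narrowest range of the 10. Its log2 difference was −0.08 (95% interval −0.42 to 0.25), and −0.16 without both samples numbered 2. SRD5A3 (chromosome 4, 55346109 to 55373096) acts as a polyprenol reductase in the glycosylation of proteins and has also been described as a steroid reductase. It had 2157, 1933 and 2238 normalized reads in ALDH high, against 2514, 2105 and 2357 in ALDH low. The ranges of the groups overlapped, and the log2 difference was −0.14 (−0.46 to 0.18), and −0.15 without both samples numbered 2. Over all 6 libraries a 2-fold difference in either direction lay outside the interval of both reductases.

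HSD17B4, a peroxisomal enzyme that shortens fatty acids and oxidises steroids (chromosome 5, 119452443 to 119637199), was the most abundant of the set. It had 7309, 8106 and 7292 normalized reads in ALDH high, against 6504, 7367 and 6919.7 in ALDH low. ALDH low 2 lay above 2 of the 3 ALDH high libraries, so the groups overlapped. The means were 7569 ± 465 in ALDH high, against 6930.3 ± 431 in ALDH low (SD, n = 3 each). The log2 difference was 0.13 (95% interval −0.18 to 0.44). It stayed above 0 whichever single library was left out (0.08 to 0.17), and was 0.12 without both samples numbered 2. HSD17B11 (chromosome 4, 87336610 to 87391386) is an oxidising enzyme of lipid droplets that acts on androgen metabolites. It had 527, 451 and 519 normalized reads in ALDH high, against 633, 539.8 and 452 in ALDH low, and both groups reached down to the same level. Its log2 difference was −0.11 (−0.51 to 0.29), which turned to 0.01 without ALDH low 1 and was −0.03 without both samples numbered 2.

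The 4 UGT2B genes stand in 1 cluster on chromosome 4. UGT2B17 (68537184 to 68568527) and UGT2B15 (68646630 to 68670628) are neighbours on the minus strand. UGT2B11 (69199951 to 69214731, minus strand) and UGT2B28 (69280499 to 69295050, plus strand) lie further along, with UGT2B10 between the pairs. The coding sequences of each pair are close copies. UGT2B15 and UGT2B17 were identical at 1535 of 1590 coding bases (96.5%), and UGT2B11 and UGT2B28 at 1540 of 1587 (97.0%). Between the pairs the identity was 83.7% to 84.9%. A read from a shared stretch has no unique place, and reads without one were not counted, so the stretches that differ carry the counts. The 90 coding bases with the most differences within each pair are shown to make this visible, in GENCODE 29 transcripts. Capitals mark the bases that differ between the 2 genes of a pair. The first pair shows coding positions 356 to 445 and the second 4 to 93, all in exon 1.
UGT2B15: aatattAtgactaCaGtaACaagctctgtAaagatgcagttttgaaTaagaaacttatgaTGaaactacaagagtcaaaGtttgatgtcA
UGT2B17: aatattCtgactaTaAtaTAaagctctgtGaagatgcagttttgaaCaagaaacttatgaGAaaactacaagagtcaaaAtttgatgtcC
UGT2B11: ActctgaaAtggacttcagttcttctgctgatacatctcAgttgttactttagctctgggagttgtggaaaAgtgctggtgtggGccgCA
UGT2B28: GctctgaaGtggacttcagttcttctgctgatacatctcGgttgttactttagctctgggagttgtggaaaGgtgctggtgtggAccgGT
The window of UGT2B15 and UGT2B17 holds 11 differences and that of UGT2B11 and UGT2B28 holds 7. The longest identical run was 199 bases in UGT2B15 and UGT2B17 and 110 in UGT2B11 and UGT2B28.

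How much of each enzyme's RNA can be counted depends on the length of the reads, which the labels do not state. Of all distinct stretches of 50 bases in the transcripts of UGT2B15, 72.2% occurred in no other GENCODE gene on either strand, and at 100 and 150 bases the shares were 87.3% and 95.1%. UGT2B17 had shares of 72.2%, 87.3% and 95.1% at the same lengths, and nearly all its shared stretches were those of UGT2B15. UGT2B11 had 57.8%, 84.5% and 93.7%, sharing most often with the pseudogene UGT2B25P and with UGT2B28 at 50 bases, and with AC111000.4, a gene on the opposite strand, at 150 bases. UGT2B28 had 65.2% and 94.6% at 50 and 100 bases and no shared stretch at 150 bases. In CYP11A1 the shares were 76.2%, 81.6% and 86.1%, and AC090826.1 shared 17.4% of the stretches at 50 bases. AC090826.1 overlaps exons of CYP11A1 on the opposite strand, and AC111000.4 does so in UGT2B11. Stretches shared through such an overlap lie at the same place in the genome, unlike those shared between close copies. How reads there were counted is not known, since the labels do not say whether strand was kept. In SRD5A1, SRD5A3, STS, HSD17B4 and HSD17B11 at least 94.7% were unique at 50 bases. The share of a gene is the same in all 6 libraries if their reads are of 1 length, so it bears on levels compared between genes.

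**Figure D2:**
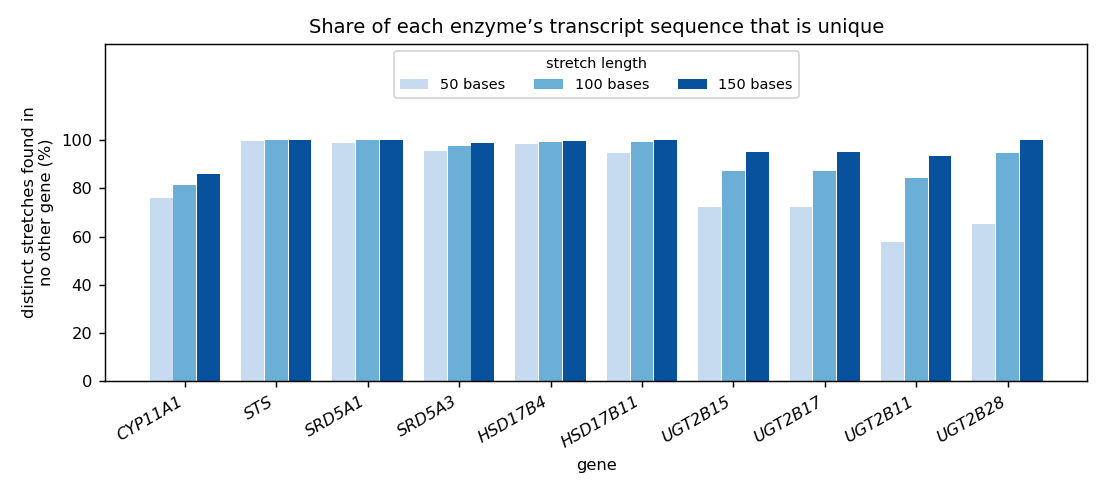
Share of the distinct stretches of 50, 100 and 150 bases (bars, %) in each enzyme's GENCODE 29 transcripts that no other gene's transcripts hold on either strand. The 4 UGT2B genes and CYP11A1 have the lowest shares at 50 bases, from 57.8% in UGT2B11 to 76.2% in CYP11A1. In CYP11A1 much of the rest is shared with AC090826.1, which overlaps its exons on the opposite strand and is not a copy elsewhere.

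UGT2B15, which conjugates dihydrotestosterone and its metabolites, was the only enzyme of the set whose groups did not overlap. It had 433, 431 and 398 normalized reads in ALDH high, against 466, 545 and 515 in ALDH low. Every ALDH high library lay below every ALDH low library. That held in 1 of 10 enzymes, while 6.99% of all genes had groups that did not overlap in either direction and 3.32% had ALDH high the lower. The means were 420.3 ± 19.5 in ALDH high, against 509 ± 39.7 in ALDH low (SD, n = 3 each). The log2 difference was −0.27 (95% interval −0.63 to 0.09), with a limma p of 0.124 and an adjusted p of 0.984. It ran from −0.33 to −0.22 when single libraries were left out, and was −0.24 without both samples numbered 2. The 3 libraries that resembled each other over all genes did not resemble each other in UGT2B15, since ALDH low 2 held its highest value.

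UGT2B17, the closest relative of UGT2B15, conjugates testosterone and dihydrotestosterone. It had 595, 726 and 572 normalized reads in ALDH high, against 656, 644 and 914 in ALDH low. ALDH high 2 lay above ALDH low 1 and 2, and ALDH low 3 stood above the rest. The log2 difference was −0.21 (95% interval −0.63 to 0.20), and −0.05 without ALDH low 3. It was −0.41 (−0.91 to 0.09) without both samples numbered 2, with a limma adjusted p of 0.418. The ratio of UGT2B17 to UGT2B15, which are of equal transcript length, was 1.38, 1.69 and 1.44 in ALDH high, against 1.41, 1.18 and 1.77 in ALDH low. Its mean was 1.50 ± 0.16 in the ALDH high group, against 1.45 ± 0.30 in the ALDH low group (SD, n = 3 each), a difference smaller than the spread within either group.

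UGT2B28, which conjugates some androgens, and UGT2B11, whose substrates are less clear, were the most variable of the 4. UGT2B11 had 80.6, 155 and 68.6 normalized reads in ALDH high, against 279, 74.2 and 163 in ALDH low. UGT2B28 had 22, 67.5 and 29.7 in ALDH high, against 119, 27.3 and 63.2 in ALDH low. In both genes ALDH low 1 was highest, ALDH high 2 and ALDH low 3 were close together, and ALDH high 1, ALDH high 3 and ALDH low 2 were lowest. The log2 difference was −0.65 (95% interval −1.67 to 0.36) in UGT2B11 and −0.72 (−1.94 to 0.50) in UGT2B28. Leaving out 1 library moved these values: they were −0.21 in UGT2B11 and −0.23 in UGT2B28 without ALDH low 1, and −1.16 in UGT2B11 and −1.27 in UGT2B28 without ALDH low 2. Without both samples numbered 2 the differences were −1.51 (−2.26 to −0.76) and −1.72 (−2.69 to −0.76), with limma adjusted p-values of 0.107 and 0.135. The counts behind UGT2B28 were small, from 21 to 137 recovered reads per library.

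The make-up of the family moved with these libraries. UGT2B11 and UGT2B28 together gave 9.08% of the reads of the 4 UGT2B genes in ALDH high 1 (95% Wilson interval 7.51% to 10.9%), 16.1% in ALDH high 2 (14.4% to 18.1%) and 9.21% in ALDH high 3 (7.52% to 11.2%). In ALDH low 1 they gave 26.2% (24.2% to 28.3%), in ALDH low 2 7.87% (6.53% to 9.44%) and in ALDH low 3 13.7% (12% to 15.5%). The group means were 11.5% ± 4.04 in ALDH high, against 15.9% ± 9.35 in ALDH low (SD, n = 3 each), a difference smaller than the SD in ALDH low but not than that in ALDH high, and the groups overlapped. These intervals cover counting error only. The ratio of UGT2B11 to UGT2B28 was 3.67, 2.30 and 2.31 in ALDH high, against 2.35, 2.71 and 2.58 in ALDH low. It thus lay between 2.30 and 3.67, with ALDH high 1 the highest. That value rests on 77 recovered reads of UGT2B11 and 21 of UGT2B28, and the counting error of the ratio was not computed. The summed level of all 4 was 1130.0, 1379 and 1068 normalized reads in ALDH high, against 1520, 1290.4 and 1655 in ALDH low, and the groups overlapped.

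**Figure D3:**
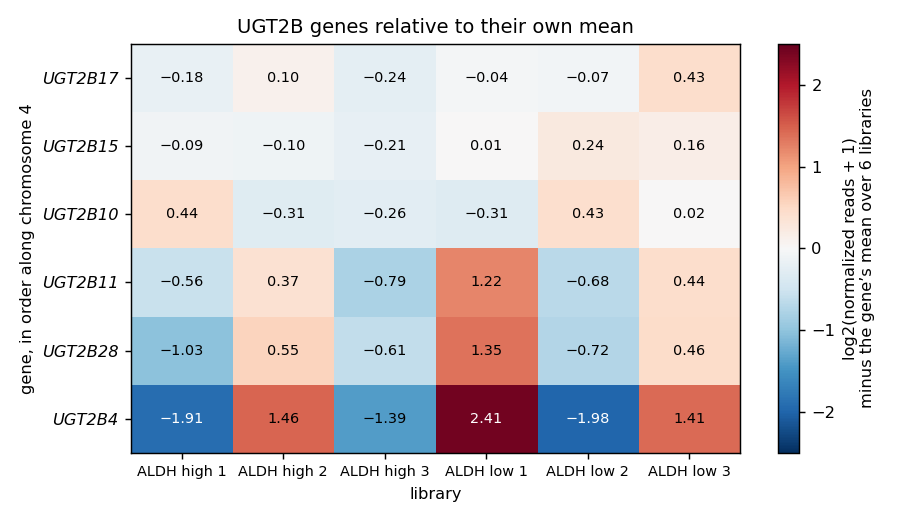
Level of 6 UGT2B genes in each library, as log2(normalized reads + 1) minus the mean of the gene over the 6 libraries (colour and printed value), with genes in their order along chromosome 4. UGT2B11, UGT2B28 and UGT2B4 are below their means in ALDH high 1, ALDH high 3 and ALDH low 2, while UGT2B17 and UGT2B15 stay between −0.24 and 0.43 throughout.

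The other UGT2B genes in the table were UGT2B10 and UGT2B4, chosen for display after their values were seen. UGT2B10, an enzyme of nitrogen glucuronidation, had 61.8, 36.5 and 37.7 normalized reads in ALDH high, against 36.4, 61.5 and 46.1 in ALDH low. UGT2B4, a liver enzyme of bile acid conjugation, had 2.09, 31.0 and 3.43 in ALDH high, against 60.6, 1.95 and 29.99 in ALDH low. Its low values rest on 2, 3 and 2 recovered reads in ALDH high 1, ALDH high 3 and ALDH low 2. Its log2 difference over all 6 libraries was −1.23 (95% interval −3.75 to 1.29), with a limma adjusted p of 0.984, and −3.56 (−4.93 to −2.19) without both samples numbered 2, with a limma adjusted p of 0.0585. UGT2B4 was lowest in ALDH high 1, ALDH high 3 and ALDH low 2, as were UGT2B11 and UGT2B28 beside it, and UGT2B10 was not.

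Sequences at the starts of UGT2B11 and UGT2B15 are shown because the first gene ranged 4.07-fold over the libraries and the second 1.37-fold. RefSeq promoter sequence (GRCh38.p14, 250 bases before to 50 after the start of the gene) was at hand for 8 of the 10 genes, all but UGT2B17 and UGT2B28. Capitals mark runs of at least 12 bases that both sequences hold. The UGT2B11 window is chr4:69214699-69214998 and the UGT2B15 window chr4:68670603-68670902, both on the minus strand.
UGT2B11: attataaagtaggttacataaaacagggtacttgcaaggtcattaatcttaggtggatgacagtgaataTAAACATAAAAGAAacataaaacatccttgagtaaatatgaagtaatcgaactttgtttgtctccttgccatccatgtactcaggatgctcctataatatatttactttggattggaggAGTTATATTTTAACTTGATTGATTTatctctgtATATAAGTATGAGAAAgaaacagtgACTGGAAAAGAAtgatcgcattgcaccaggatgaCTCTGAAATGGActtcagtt
UGT2B15: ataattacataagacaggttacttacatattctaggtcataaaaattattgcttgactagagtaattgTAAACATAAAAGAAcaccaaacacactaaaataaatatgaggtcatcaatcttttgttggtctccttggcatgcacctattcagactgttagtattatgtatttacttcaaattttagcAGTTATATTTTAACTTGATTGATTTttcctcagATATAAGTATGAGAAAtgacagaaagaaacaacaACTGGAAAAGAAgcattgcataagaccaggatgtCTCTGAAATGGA
The shared runs cover 79 bases in 5 stretches. The longest, AGTTATATTTTAACTTGATTGATTT, has 25 bases, begins 62 bases before the start of UGT2B11 and 63 before that of UGT2B15, and was found in no other of the 35116 windows searched. No window of UGT2B17 or UGT2B28 was among those searched, so the search cannot tell whether these close copies hold the run. The windows of UGT2B11 and UGT2B15 held 33.0% and 30.3% G and C, against a median of 58.7% over all windows. The 5th percentile of all windows was 35.7%. The 5 enzymes CYP11A1, HSD17B11, HSD17B4, SRD5A1 and SRD5A3 had 54.7% to 71.0%. The letters TGTTCT, the repeat unit of the steroid receptor element, were found on either strand in 2 of the 8 genes (UGT2B15 and STS) and in 14.8% of all windows. TATAAA was found in 2 of the 8 (UGT2B11 and STS) and in 11.5% of all windows. No exact copy of the whole steroid receptor palindrome, of which TGTTCT is a part, was found in any of the 8. The same held for the palindrome of the HNF1 factors. Exact copies of the 2 were in just 0.00285% and 0.0057% of all windows, so absence from 8 genes was likely at the outset. Sites that differ from the palindromes in some letters were not searched for, and their absence is not shown. STS has 5 windows and so had more chances of a match.

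Across the set, per kilobase of the transcript with the longest coding sequence, HSD17B4 stood first with 2627 ± 162 normalized reads in ALDH high, against 2406 ± 149.7 in ALDH low (SD, n = 3 each). SRD5A3 followed with 503 ± 37.7 in ALDH high, against 555 ± 49.3 in ALDH low. UGT2B17 had 304 ± 40.2 in ALDH high, against 355 ± 73.3 in ALDH low. HSD17B11 had 265 ± 22.2 in ALDH high, against 287 ± 48.1 in ALDH low, and UGT2B15 had 202 ± 9.41 in ALDH high, against 245 ± 19.1 in ALDH low. UGT2B17 and HSD17B11 overlapped in both groups, while UGT2B15 lay below HSD17B11 in every ALDH high library and overlapped it in ALDH low. CYP11A1 had 129.8 ± 76.4 in ALDH high, against 211 ± 121 in ALDH low. SRD5A1 had 125 ± 12.9 in ALDH high, against 132 ± 5.92 in ALDH low, and the levels of these 2 genes overlapped. UGT2B11 had 48.6 ± 22.4 in ALDH high, against 82.4 ± 49.2 in ALDH low. UGT2B28 had 21.7 ± 13.3 in ALDH high, against 38.0 ± 25.1 in ALDH low. STS had 24.2 ± 10.7 in ALDH high, against 27 ± 9.37 in ALDH low. Taken over all libraries the levels of these last 3 genes overlapped, but within each library UGT2B11 lay above both UGT2B28 and STS. With all annotated exons as the length, HSD17B4 averaged 679.8 over the 6 libraries in place of 2516, still first, and HSD17B11 and UGT2B15 changed places, as did CYP11A1 and SRD5A1. Reads of the UGT2B genes that have no unique place are missing from these levels.

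**Figure D4:**
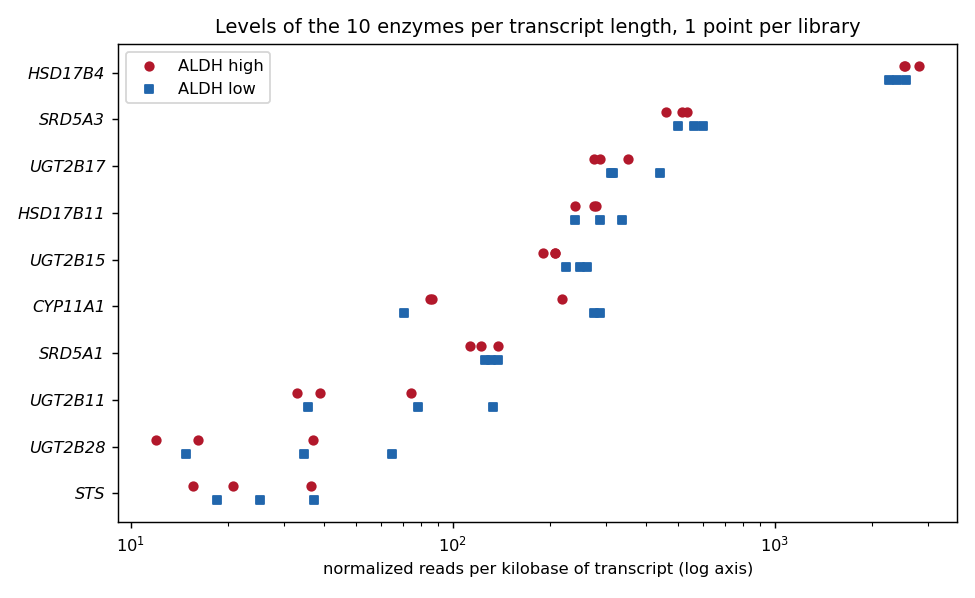
Normalized reads per kilobase of transcript (horizontal log axis) for each enzyme, with 1 point for each ALDH high library (circles) and each ALDH low library (squares). HSD17B4 lies above the rest at 2258 to 2814, and the points of CYP11A1, UGT2B11, UGT2B28 and STS spread widest.

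The enzymes differed in how far they varied over the libraries. In 6 of the 10 the highest library exceeded the lowest 1.22-fold to 1.60-fold, and in CYP11A1, STS, UGT2B11 and UGT2B28 it did so 2.38-fold to 5.40-fold. Among the 11506 genes that averaged 100 or more normalized reads, the median of this ratio was 1.53, and 13.8% reached a ratio of 2. UGT2B28, which has the 5.40-fold range, averaged 54.7 and is not among those genes. The widest range of an enzyme that is among them was 4.07-fold, in UGT2B11. The libraries ALDH high 1 and 3 and ALDH low 2 held the 3 lowest values in 5 of the 10 (these 4 and UGT2B17), and in 12% of all genes. They held the 3 highest in 0 of the 10, and in 13.6% of all genes. In UGT2B17 the place among the lowest rested on 644 in ALDH low 2 against 656 in ALDH low 1.

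**Figure D5:**
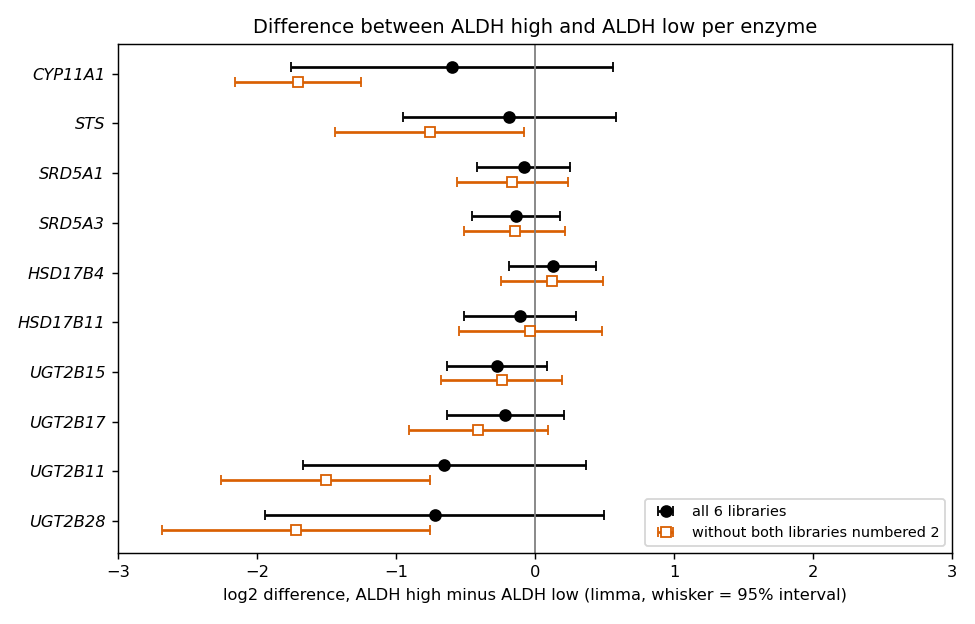
Log2 difference, ALDH high minus ALDH low (points), with 95% intervals from limma (whiskers) for each enzyme, over all 6 libraries and without both libraries numbered 2. All intervals over 6 libraries include 0. With 4 libraries the intervals of CYP11A1, STS, UGT2B11 and UGT2B28 lie below 0, as do those of 6.7% of all genes (15.3% exclude 0 in either direction). CYP11A1 is the one that passes an adjusted p of 0.05 in limma (0.0213). The libraries numbered 2 were left out with the arrangement of the libraries known, so the 4-library intervals are no independent support.

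Genes with a like pattern were sought for the 2 enzymes with the highest means and for the one with the widest range of log2(normalized reads + 1) among those with a mean of at least 100, CYP11A1. Likeness was the root mean square difference of log2(normalized reads + 1) over the 6 libraries, each gene centred on its own mean, among 11505 genes. For HSD17B4 the nearest were SERINC3 (0.02), RELA (0.02) and EIF2AK1 (0.03), where the median over all genes was 0.23. For SRD5A3 they were DVL1 (0.02), COQ5 (0.03) and MKKS (0.03), beside a median of 0.24. For CYP11A1 they were HIST1H1C (0.14), TRGC1 (0.17) and RALYL (0.17), beside a median of 0.86. HIST1H1C, a linker histone gene, had 352, 828 and 334 normalized reads in ALDH high, against 945, 302 and 1349 in ALDH low.

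Around the 10 enzymes, 3 lists of 68 names in all covered the rest of the pathway, of which 41 were in the table, the 10 enzymes among them. Limma called 0 of the 41 between ALDH high and ALDH low. Of the 31 genes that are not in the set, 8 lay above 0 in log2 difference and 23 below it, and their median was −0.09 beside 0.02 for all genes. None of the 31 had groups that did not overlap, where 6.99% of all genes had such groups. Without both samples numbered 2, a choice made with the arrangement of the libraries known, limma called 2 of the 41. These were CYP11A1 and RDH11, both lower in ALDH high. Over all genes it called 107 (0.669%), of which 75 were higher and 32 lower in ALDH high.

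The list of androgen synthesis and activation held 14 of 22 names, with 3 differences above 0 and 11 below. RDH11, a retinal reductase of the prostate, had 6853, 14909 and 6981 normalized reads in ALDH high, against 13632, 7589 and 15184 in ALDH low. ALDH high 2 lay with ALDH low 1 and 3, and ALDH low 2 with ALDH high 1 and 3. Its log2 difference was −0.38 (95% interval −1.11 to 0.35), and −1.06 (−1.44 to −0.67, limma adjusted p = 0.04996) without both samples numbered 2. The samples left out are those that lay with the other group, and they were chosen with the arrangement of the libraries known. That p-value is therefore no independent support. CYB5A, a cytochrome that aids androgen synthesis, had a log2 difference of −0.12, POR, which passes electrons to cytochromes P450, one of −0.09, and STARD3, a cholesterol carrier, one of −0.08.

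Of the 22 names for oxidation, reduction and sulfation, 15 were found, with 5 differences above 0 and 10 below. SUMF2 differed by −0.11, HSD17B10, a mitochondrial dehydrogenase, by −0.12, H6PD, which makes NADPH in the endoplasmic reticulum, by 0.19, and HSD17B8 by −0.13. Of the 24 names for glucuronidation, 12 were found, with 1 difference above 0 and 11 below. UGDH, which makes UDP-glucuronic acid, had 3245, 4327 and 3116 normalized reads in ALDH high, against 4611, 3514 and 3486 in ALDH low. Its groups overlapped, with a log2 difference of −0.12 (95% interval −0.52 to 0.27). UGP2, which makes UDP-glucose, differed by −0.04, the transporter SLC35B1 by −0.09, and GUSB, which removes glucuronic acid again, by 0.10.

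In the authors' deposited table, whose log2 fold change is positive where ALDH low is higher, the values were 0.81 for UGT2B28, 0.76 for UGT2B11, 0.70 for CYP11A1 and 0.27 for UGT2B15. The authors' deposited table gives HSD17B4 a fold change of −0.13 on the same scale. The adjusted p in the authors' deposited table was 0.998 for each of the 10.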

How the data were processed

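RNA of 6 samples was measured. The submitters' processing notes name GRCh38, featureCounts (Subread 1.5.2), Trimmomatic 0.36, DESeq2 and STAR 2.5.2b. Per the labels' protocols, unique reads in exons were counted per gene and RNA was selected by poly(A). In the 1 table the authors deposited, each gene has a normalized read signal for every sample, a log2 fold change, and a p-value with its adjusted value. The sample values of the deposited signal were whole multiples of 1 step per sample, and dividing by that step gave whole reads (tolerance 0.02 of a read) for at least 99.98% of them.

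The table held 16046 rows, 46 of them spike-ins, with a lowest row mean of 9.65. GENCODE 29 (GRCh38) gave coordinates and lengths and matched 15939 of the 16000 gene identifiers.

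The main test was limma 3.58.1 in R 4.3.3 on log2(normalized reads + 1) with a mean-variance trend over all 16000 genes, with Benjamini-Hochberg adjustment, a threshold of 0.05 and 95% intervals. This scale understates differences of low genes. edgeR 4.0.16, DESeq2 1.42.0 and limma-voom on the recovered reads were alternatives, and the 4 tools were tested on simulated data of 3 against 3 samples. The simulated data held no arrangement of libraries across the groups such as the one found here, so they do not show how the tools behave under it. Nothing says that samples of a group came from separate cultures, and p-values then reflect just the spread among these samples, which may be technical. No pair of libraries agreed within sampling noise: the mean chi-square per gene was at least 5.31, where 1 is expected.

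The enzymes and the lists were chosen with earlier results of these data known. Named were every enzyme of the set, the 4 most abundant other genes of each list, any called gene, and the 3 genes most like 3 of the enzymes. UGT2B10 and UGT2B4 fall outside that rule and were chosen after their values were seen.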

Additional observations from a re-analysis of the deposited data

Results flagged for a closer look

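Spike-in reads, which no comparison above uses, were present in every library. ERCC sequences, synthetic RNAs used as spike-in controls, took 0.487% of all recovered reads. The share is given as a value in rows outside every comparison, with no test. Their share ran from 0.399% to 0.630% in ALDH high and from 0.448% to 0.556% in ALDH low.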

How the results depend on the processing

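None of the 10 enzymes, none of the 41 list genes and 0 of all genes were called with edgeR, DESeq2, limma-voom, total-count scaling, a pseudocount of 0.5 or 5, a minimum mean of 100, no mean-variance trend, or any single library left out (0 to 0 in each case). Without both samples numbered 2, limma called 107 genes, 1 of the 10 enzymes (CYP11A1) and 2 of the list genes. The cause was not tested. That alternative was chosen with earlier results known, so its calls are no independent support. A minimum mean of 100 leaves UGT2B28 out.

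With single libraries left out, the log2 difference ran from −1.26 to −0.25 in CYP11A1, −1.16 to −0.21 in UGT2B11, −1.27 to −0.23 in UGT2B28, −0.52 to 0.08 in STS and −0.23 to 0.01 in HSD17B11. It ran from −0.33 to −0.22 in UGT2B15, −0.32 to −0.05 in UGT2B17, −0.21 to −0.08 in SRD5A3, −0.16 to −0.01 in SRD5A1 and 0.08 to 0.17 in HSD17B4. Among the 10 the sign turned in STS (0.085 without ALDH high 1, 0.070 without ALDH low 1) and HSD17B11 (0.011 without ALDH low 1) only. ALDH low 2 decided the low end for CYP11A1, UGT2B11 and UGT2B28. The high end came without ALDH low 3 in CYP11A1 and without ALDH low 1 in the other two.

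Deviations from the group means correlated at −0.46, −0.43 and 0.14 for numbers 1, 2 and 3. Between unlike numbers the values ran from −0.51 (ALDH high 3 and ALDH low 1) to 0.56 (ALDH high 2 and ALDH low 1). With 3 libraries per group and an arrangement that crosses the groups, these values cannot decide whether equal numbers mark pairs. With the number as a replicate block, 0 genes, 0 enzymes and 0 list genes were called. Only ALDH low 3 correlated best with its own number. Depth limits UGT2B28 most, at 21 recovered reads in ALDH high 1.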
